A study of Mus musculus with 9 samples.

Results

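A set of genes of fat storage and fat breakdown was followed across whole lungs of mice that had breathed air, cigarette smoke or the aerosol of a heated tobacco product. They are Adipoq, Cfd and Lep, which encode secreted proteins, the droplet coat genes Plin1 and Plin4, the lipase genes Pnpla2 and Lipe, the receptor genes Adrb3 and Hcar1, and the brown fat gene Ucp1. A probe was taken for a gene when its RefSeq accession belonged to that gene, which gave 12 probes of the 56605 on the array and 10 genes of the 22911 that could be named. Adrb3 and Cfd each had 2 probes and the other genes had 1. Where a gene had more than 1 probe, the brighter stood for it.

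The mice were male C57BL/6J and 12 weeks old at the start. Over 6 months they received fresh air (air), a 3.5% aerosol of IQOS, which heats tobacco without burning it (IQOS), or 3.5% cigarette smoke (CS). Total RNA of the lung was labelled with Cy3 and measured on Agilent arrays in a single colour. Each group had 3 arrays, numbered as in the labels. The labels do not say that each array is a separate mouse, so the p-values measure the spread between these arrays, which may be technical. A level is the log2 signal of a probe minus the log2 75th percentile of its array, so 0 is the 75th percentile and a step of 1 is a doubling. Levels of different probes cannot be set against each other, and only the arrays of 1 probe are compared.

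In fat cells, triglyceride lies in a droplet coated by perilipins. Adrenergic signals raise cyclic AMP, the coat is phosphorylated, and the lipases Pnpla2 and Lipe take the triglyceride apart. Receptors such as Hcar1, which senses lactate, lower cyclic AMP and hold this breakdown back. Fat cells also secrete adiponectin, adipsin and leptin. The lung has lipid-storing cells of its own, and fat lies around the airways, the heart and the mediastinum. RNA of a whole lung does not tell fewer cells of a type from less RNA per cell.

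The arrays held strong lung signal. Sftpc, the surfactant gene of alveolar type II cells, lay between 9.14 and 9.34 on all 9 arrays, and Ager of type I cells between 7.96 and 8.20. Between 64.3% and 68.8% of probes were well above background, and the 75th percentile signal was 973.3 to 1098 units. Air and CS arrays shared a slide and the IQOS arrays lay on another, so slide and IQOS cannot be told apart. On the first slide air 1 and air 2 lay in array row 1, and air 3 and the CS arrays in row 2. Of the 10 genes, 9 were tested, having passed background on all measured arrays of at least 1 group.

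Against air, 3 of the 9 tested genes fell in CS and 0 rose. These were Adrb3, Plin4 and Hcar1, called in limma at an adjusted p under 0.05 over all tested probes. Hcar1 entered the test only through the IQOS arrays, all 3 of which were above background. Over all 16593 genes tested, 11.7% were called in this comparison, 5.6% higher and 6.12% lower. The median change of the 9 genes was -0.78 on the log2 scale, against -0.02 over all genes tested. At an unadjusted p under 0.05 there were 6 of the 9 genes, against 31.2% of all genes. The 6 were Adrb3, Hcar1, Adipoq, Plin1, Plin4 and Cfd. The last 4 ran together over the arrays (r of deviations from the group means 0.969 to 0.988), so they are not separate counts. In 4 of the 9 (Adipoq, Adrb3, Hcar1 and Plin4) every CS array lay below every air array, which held in the lower direction for 21% of all genes tested. With array row as a covariate, whose term rests on air 3 against air 1 and air 2, 0 of the 9 were called, and the calls over all tested probes went from 3840 to 353. When the fit held the air and CS arrays alone, Adrb3 was called, Plin4 was not (adjusted p = 0.0634) and Hcar1 did not enter the test.

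**Figure D1:**
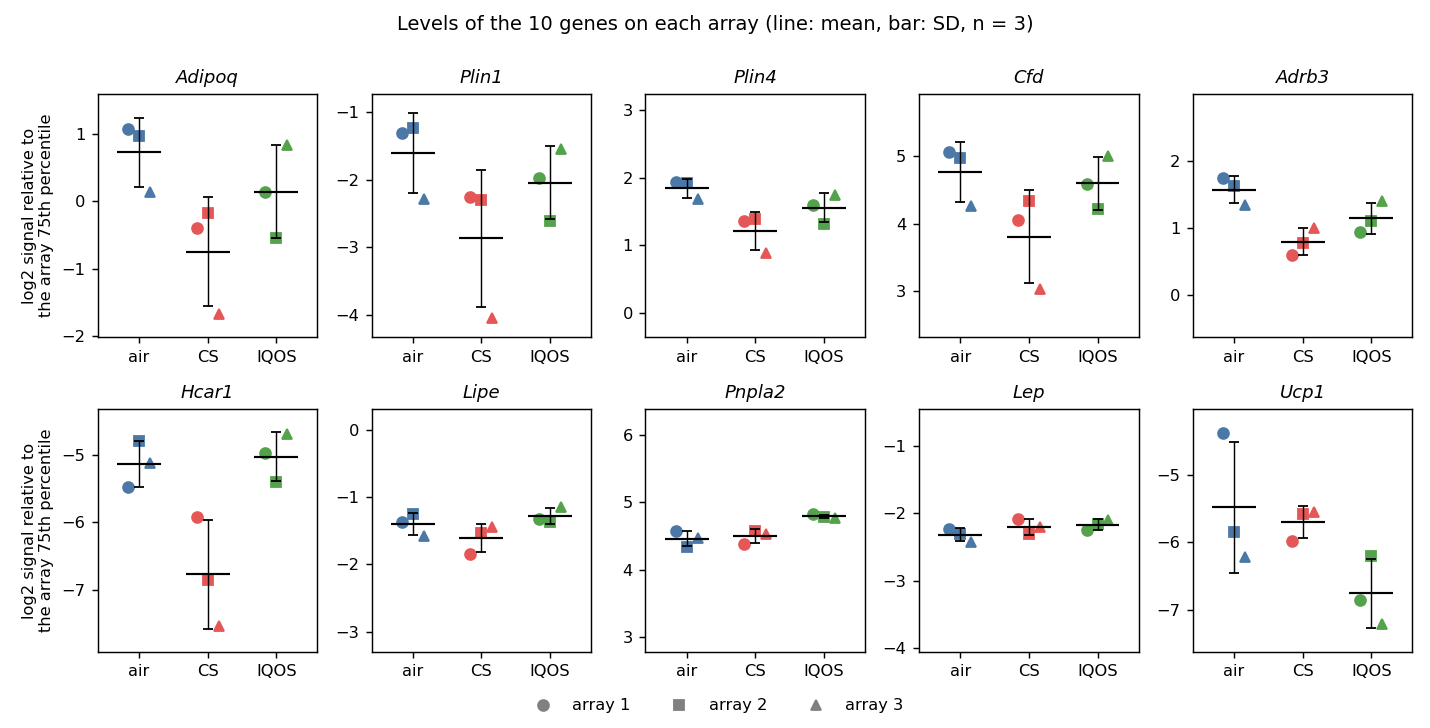
Level of each of the 10 genes on each array, as log2 signal relative to the array's 75th percentile, for the air, CS and IQOS groups; the line is the mean, the bar the SD (n = 3), and the panels share 1 height of scale but not its position. Every CS array lies below every air array for Adipoq, Plin4, Adrb3 and Hcar1, while Lep stays within 0.34 log2 units over all arrays; the Ucp1 probe was above background on air 1 only.

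Adipoq encodes adiponectin, a hormone secreted almost only by fat cells. Its level was 1.07, 0.97 and 0.13 on air 1, 2 and 3, then -0.40, -0.17 and -1.67 on CS 1, 2 and 3, and 0.13, -0.54 and 0.83 on IQOS 1, 2 and 3. All 3 CS arrays lay below the air arrays, air 3 lay far below air 1 and air 2, and the IQOS arrays spread across both groups. The air mean was 0.72 ± 0.52 (SD, n = 3), the CS mean -0.75 ± 0.81 and the IQOS mean 0.14 ± 0.69. The difference of CS from air was -1.47 ± 0.48 (SE), a level 2.77-fold lower, with an adjusted p of 0.0900 in limma, which misses the threshold. IQOS differed from air by -0.58 ± 0.48 (adjusted p = 0.520) and from CS by 0.89 ± 0.48 (adjusted p = 0.271). With array row in the fit these 3 differences were -0.88 (CS against air, adjusted p = 0.544), -0.88 (IQOS against air) and 0.00095 (IQOS against CS). Without CS 3, CS differed from air by -1.01 and IQOS from CS by 0.43, and without IQOS 2, IQOS differed from air by -0.24. The within-group SD of Adipoq was 0.68, and 1.64% of the tested genes had a larger one, where the median gene had 0.122.

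Cfd encodes adipsin, the complement factor D protease that fat cells release in quantity. It read 5.06, 4.98 and 4.26 on the air arrays, 4.05, 4.34 and 3.04 on the CS arrays, and 4.59, 4.22 and 5.0 on the IQOS arrays. CS 3 was the lowest array and CS 2 overlapped air 3. The difference of CS from air was -0.96 ± 0.37 (SE; adjusted p = 0.137 in limma), that of IQOS from air -0.17 ± 0.37 (adjusted p = 0.830), and that of IQOS from CS 0.79 ± 0.37 (adjusted p = 0.212). With array row in the fit the first was -0.45 (adjusted p = 0.691), the second -0.42 and the last 0.03, and without CS 3 the first and last were -0.57 and 0.40. Its second probe gave -0.98 ± 0.37 for CS against air (adjusted p = 0.127).

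Lep encodes leptin, the hormone that reports fat mass to the brain. Its level was -2.23, -2.30 and -2.42 on the air arrays, -2.09, -2.31 and -2.21 on the CS arrays, and -2.25, -2.16 and -2.10 on the IQOS arrays. All groups overlapped, and the highest array was 1.26-fold above the lowest. CS differed from air by 0.12 with a 95% interval of -0.08 to 0.31, IQOS from air by 0.15 (-0.04 to 0.34), and IQOS from CS by 0.03 (-0.16 to 0.23). The smallest adjusted p of the 3 limma comparisons was 0.338.

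The start regions of these secreted-protein genes are shown because Adipoq and Cfd varied together on these arrays and Lep did not vary with them. The sequences are the 250 bases before each RefSeq start, build GRCm38.p6, plus strand, at chr16:23146286-23146535 for Adipoq, chr10:79890603-79890852 for Cfd and chr6:29059971-29060220 for Lep. Capitals mark matches, on either strand, to CCAAT (the CCAAT box, which reads ATTGG on the other strand), TTGCNNAA (a C/EBP site), TATAA (the TATA box) or AGGTCA (a half-site of nuclear receptors such as PPARG).
Adipoq: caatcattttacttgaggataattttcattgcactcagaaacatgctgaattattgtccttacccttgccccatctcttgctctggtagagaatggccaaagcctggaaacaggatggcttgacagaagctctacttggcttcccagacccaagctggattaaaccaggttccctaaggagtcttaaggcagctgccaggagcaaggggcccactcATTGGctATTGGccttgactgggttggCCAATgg
Cfd: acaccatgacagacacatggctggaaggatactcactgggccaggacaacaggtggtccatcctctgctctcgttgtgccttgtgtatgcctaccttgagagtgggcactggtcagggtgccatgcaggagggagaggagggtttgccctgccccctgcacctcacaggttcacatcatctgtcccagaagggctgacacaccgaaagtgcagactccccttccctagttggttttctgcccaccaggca
Lep: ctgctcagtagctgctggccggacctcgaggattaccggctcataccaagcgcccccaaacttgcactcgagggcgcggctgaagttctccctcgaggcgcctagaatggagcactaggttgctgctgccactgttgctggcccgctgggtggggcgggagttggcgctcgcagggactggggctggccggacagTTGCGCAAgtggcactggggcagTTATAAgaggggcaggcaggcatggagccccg
Adipoq held 3 CCAAT matches, at 34 to 30, 27 to 23 and 7 to 3 bases before the start. Lep held 1 TTGCNNAA match at 55 to 48 bases and 2 overlapping TATAA matches, 1 on each strand, between 32 and 27 bases. Cfd held 0 matches to the 4 patterns, and AGGTCA was in none of the 3 windows. Over 32851 windows of the same length in the RefSeq table, 33.8% held CCAAT, 22.8% TATAA, 14.0% AGGTCA and 9.56% TTGCNNAA. A match describes letters and not a bound site. None of the 4 patterns was in both Adipoq and Cfd.

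Plin1 encodes perilipin 1, the coat protein that shields the large droplet of a fat cell from lipases. Its level was -1.30, -1.23 and -2.29 on the air arrays, -2.26, -2.30 and -4.05 on the CS arrays, and -1.97, -2.61 and -1.54 on the IQOS arrays. CS 3 stood lowest by far, and air 3 lay among the CS arrays. CS differed from air by -1.26 ± 0.53 (SE; adjusted p = 0.163 in limma), IQOS from air by -0.43 ± 0.53 (adjusted p = 0.674), and IQOS from CS by 0.83 ± 0.53 (adjusted p = 0.347). With array row in the fit these were -0.58 (adjusted p = 0.728), -0.77 and -0.19. Without CS 3 the first and last were -0.67 and 0.24.

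Plin4, a perilipin found on small and growing droplets, read 1.93, 1.92 and 1.68 on the air arrays, 1.36, 1.39 and 0.89 on the CS arrays, and 1.60, 1.32 and 1.75 on the IQOS arrays. Air and CS did not overlap. Plin4 fell in CS by 0.63 ± 0.16 on the log2 scale, a 1.55-fold lower level (adjusted p = 0.0489 in limma), the call nearest the threshold among the 3. It was lost when any array other than IQOS 2 was left out, with an adjusted p of up to 0.148, and under 7 of 12 other processing settings, up to 0.365. IQOS differed from air by -0.29 ± 0.16 (adjusted p = 0.346) and from CS by 0.34 ± 0.16 (adjusted p = 0.220).

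Pnpla2 encodes the adipose triglyceride lipase, which cuts the first fatty acid from triglyceride in many tissues. Its level was 4.57, 4.34 and 4.47 on the air arrays, 4.38, 4.58 and 4.54 on the CS arrays, and 4.82, 4.78 and 4.77 on the IQOS arrays. All 3 IQOS arrays lay above the other 6, which overlapped and lay on the other slide. IQOS differed from air by 0.33 ± 0.08 (SE), a level 1.26-fold higher with an adjusted p of 0.0610 in limma, and from CS by 0.29 ± 0.08 (adjusted p = 0.0563). Both miss the threshold in this fit and pass it after normexp background correction (0.0462 and 0.0464) and with an intensity trend and robust eBayes (0.0312 and 0.0284). Over 12 other settings, the looser threshold of 0.1 among them, the first passed in 3 and the second in 4. Neither passed with median centring (0.115 and 0.108), the replicate block (0.116 and 0.101) or array row (0.139 and 0.496). CS differed from air by 0.04 ± 0.08 (adjusted p = 0.771), with a 95% interval of -0.14 to 0.22.

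Lipe encodes hormone-sensitive lipase, the next enzyme of the chain. It read -1.36, -1.25 and -1.57 on the air arrays, -1.84, -1.53 and -1.44 on the CS arrays, and -1.33, -1.36 and -1.15 on the IQOS arrays. The IQOS arrays lay above the CS arrays, and air overlapped both. IQOS differed from CS by 0.32 ± 0.13 (SE; adjusted p = 0.146 in limma), CS from air by -0.21 ± 0.13 (adjusted p = 0.315), and IQOS from air by 0.11 ± 0.13 (adjusted p = 0.642).

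Adrb3 encodes the adrenergic receptor through which noradrenaline starts fat breakdown in rodent fat cells. Its level was 1.74, 1.62 and 1.35 on the air arrays, 0.60, 0.78 and 1.0 on the CS arrays, and 0.94, 1.1 and 1.40 on the IQOS arrays. Every CS array lay below every air array, and IQOS lay between and overlapped both. Adrb3 fell in CS by 0.78 ± 0.16 on the log2 scale, a 1.71-fold lower level (adjusted p = 0.0248 in limma). Its dimmer probe read -2.12, -2.29 and -2.48 in air, -2.87, -2.80 and -2.62 in CS, and -2.78, -2.74 and -2.59 in IQOS, and also fell in CS, by 0.46 ± 0.11 (adjusted p = 0.0390). The call of the brighter probe was lost without air 1, air 2, CS 1 or CS 2, with an adjusted p of up to 0.0909, and once array row was in the fit (-0.55, adjusted p = 0.249). IQOS differed from air by -0.43 ± 0.16 (adjusted p = 0.170), and by -0.40 ± 0.11 on the dimmer probe (adjusted p = 0.0850). IQOS differed from CS by 0.35 ± 0.16 (adjusted p = 0.192) and, on the dimmer probe, by 0.06 ± 0.11 (adjusted p = 0.778).

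Hcar1, the lactate receptor, was dim. It was well above background on 2 of 3 air arrays, on 0 of 3 CS arrays and on 3 of 3 IQOS arrays. It was admitted to the test only by its bright IQOS group, so its calls are not independent of the filter. With no filter neither passed (adjusted p = 0.0793 for CS against air and 0.0672 for IQOS against CS), and with a filter on all 9 arrays it was not tested. Its level was -5.47, -4.80 and -5.12 in air, -5.93, -6.85 and -7.54 in CS, and -4.98, -5.41 and -4.68 in IQOS, and every CS array lay below the other 6. The limma calls (adjusted p = 0.0390 for CS against air and 0.0325 for IQOS against CS) test the measured differences, -1.64 and 1.75. Against the background limit it was 1.07-fold lower in CS than in air and at least 1.15-fold higher in IQOS than in CS. The 1.07 is not a strict lower bound, as the air mean includes air 1, which was itself below background. These folds set the mean of the brighter group against the lowest signal that counted as above background on the CS arrays, or the probe's own signal where that was higher. Each call was lost in 7 of the 9 fits that left out 1 array, with an adjusted p of up to 0.110 for CS against air (kept only without CS 1 or IQOS 2) and up to 0.0942 for IQOS against CS (kept only without air 2 or CS 1). IQOS and air overlapped and differed by 0.11 ± 0.39 (adjusted p = 0.90). Under normexp background correction neither call passed (adjusted p = 0.0672 and 0.0694).

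Ucp1 encodes the uncoupling protein with which brown fat makes heat. Its probe was above background on air 1 only, at -4.38, and read -5.56 or lower on the other 8 arrays. It was not tested, and no order of groups is read from these values.

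In the comparison of IQOS with air, 0 of the 9 tested genes were called by limma, with 2 (Adrb3 and Pnpla2) at an unadjusted p under 0.05, where 2.87% of all genes tested were called and 20.3% had an unadjusted p under 0.05. In 1 gene (Pnpla2) every IQOS array lay above every air array, which held for 13% of all genes tested. The median change of the 9 genes was -0.17, against -0.01 over all genes tested. Between IQOS and CS, 1 of the 9 was called, higher in IQOS. It was Hcar1, the gene that passed the filter through IQOS alone, and 0 of the other 8 were called, where 10.1% of all genes tested were called and 4.94% were called higher. At an unadjusted p under 0.05 there were 3 of the 9, against 29.3% of all genes tested. The median difference was 0.35, against 0.02 over all genes tested. In 3 genes (Hcar1, Lipe and Pnpla2) every IQOS array lay above every CS array, which held for 18.5% of all genes. The 3 comparisons share arrays, so they are not independent of each other.

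**Figure D2:**
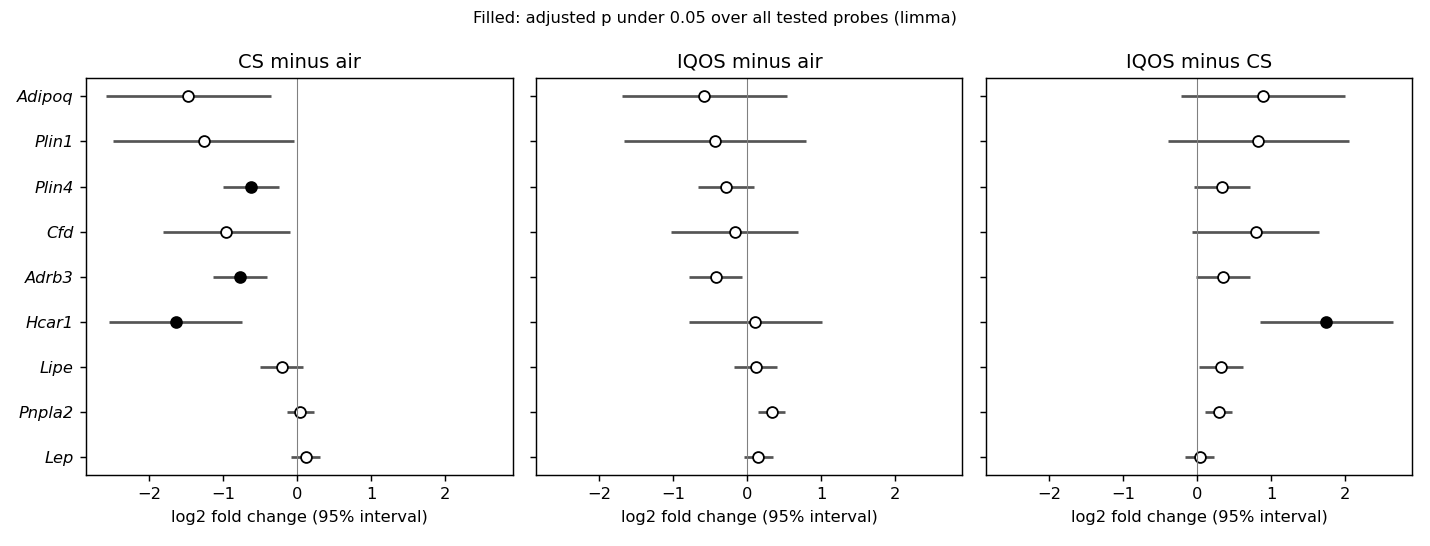
Difference of group means of each of the 9 tested genes in log2 units for CS against air, IQOS against air, and IQOS against CS, with 95% intervals from limma on 3 arrays per group; filled points have an adjusted p under 0.05 over all tested probes. Plin4, Adrb3 and Hcar1 are filled for CS against air and Hcar1 alone for IQOS against CS; the Hcar1 points are measured differences (-1.64 and 1.75) of a probe below background in CS.

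Adipoq, Plin1, Plin4 and Cfd were high and low on the same arrays. In all 4 genes CS 3 was the lowest of the 9 arrays and IQOS 2 was the lowest IQOS array, and air 3 was the lowest air array. From the group mean, Adipoq stood at -0.59 on air 3, -0.92 on CS 3 and -0.68 on IQOS 2, and Plin1 at -0.68, -1.18 and -0.57. These 4 genes were put together after their values were seen. The IQOS arrays share 1 array row and ranged from -0.54 to 0.83 in Adipoq. Air 3 differs in array row from air 1 and air 2, and the part of the row in its dip was not tested.

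**Figure D3:**
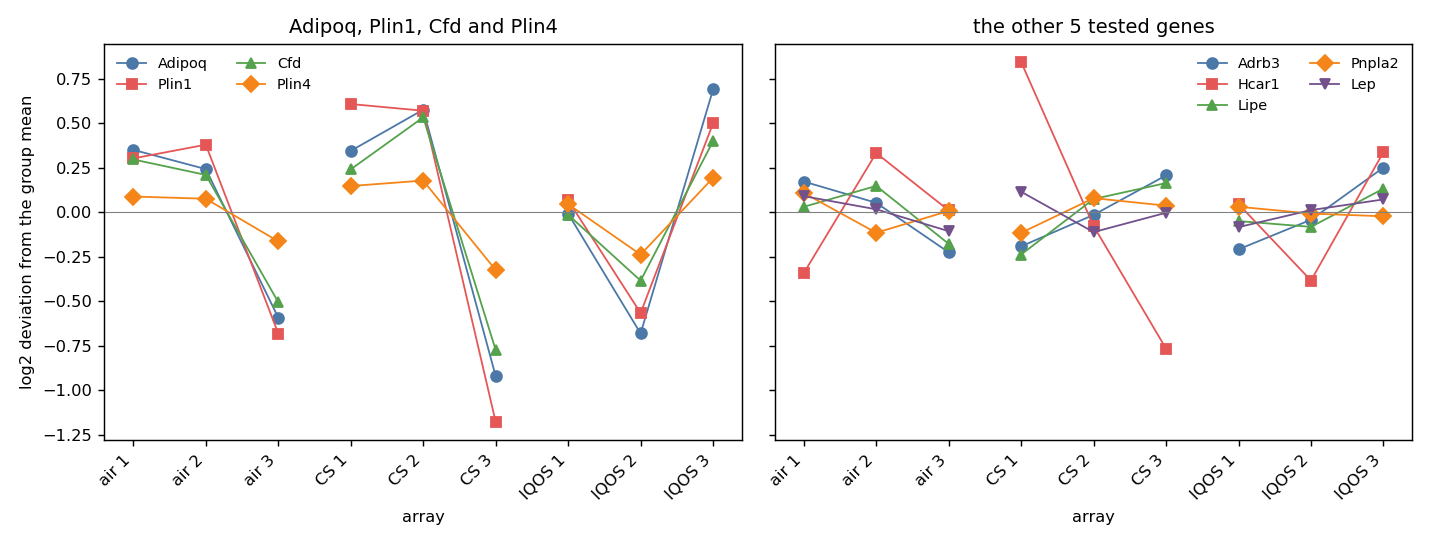
Deviation of each gene from its group mean, in log2 units, on each of the 9 arrays, with Adipoq, Plin1, Cfd and Plin4 on the left and the other 5 tested genes on the right; lines join the arrays of a group only to guide the eye. The 4 genes on the left dip together on air 3, CS 3 and IQOS 2, and among the genes on the right Adrb3 and Lipe run alike (r = 0.831).

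The 6 pairs among these 4 genes had Pearson r of 0.944 to 0.986 and Spearman rho of 0.833 to 0.983 over the levels of the 9 arrays. Of the 36 pairs that the 9 tested genes form, 10 passed by r and 6 by rho at an adjusted p under 0.05 (two-sided exact permutation tests over all 362880 orders, Benjamini-Hochberg over 36 pairs), and these 6 pairs passed by both. The other 4 that passed by r were the pairs of Hcar1 with each of these 4 genes. Hcar1 was above background on 5 of the 9 arrays and on 0 CS arrays, and entered the test only through IQOS. For Adipoq with Plin4, r was 0.986 (exact permutation p = 5.51e-06, adjusted 0.000198) and rho 0.983 (p = 4.96e-05, adjusted 0.00179). Without the 2 arrays farthest from the median of the first gene, r of the 6 pairs was 0.837 to 0.958. On the 6 arrays of the first slide it was 0.954 to 0.990.

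Those levels include differences between groups. On deviations from the group means, r of the 6 pairs was 0.969 to 0.988 and rho 0.833 to 0.983, and without the 2 farthest arrays r was 0.935 to 0.981. Only 216 orders exist within groups, and the smallest p they can give is 0.00463. The 6 pairs had exact permutation p of 0.00463 to 0.0185 by r, and 0.0556 to 0.111 after adjustment over 36 pairs, so 0 of 36 pairs passed. At an unadjusted p under 0.05 there were 7 of 36, the 6 pairs and Adrb3 with Lipe (r = 0.831, rho = 0.80, exact permutation p = 0.0278 for each, adjusted 0.143 and 0.167). The 20 pairs of one of the 4 genes with another tested gene had a median r of 0.147, from -0.22 to 0.723, and the median over all 36 pairs was 0.235.

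Adrb3, also lower in CS, ran in another order within CS. Its r with Adipoq was 0.691 over levels (exact permutation p = 0.0368, adjusted 0.110) and 0.167 on deviations (p = 0.708, adjusted 1). It was highest on CS 3 among the CS arrays, the array on which the 4 genes were lowest. Without CS 3 and IQOS 2, the 2 arrays farthest from the median of Adipoq, its r with Adipoq on deviations was 0.698. Hcar1 had r with Adipoq of 0.784 over levels (exact permutation p = 0.0107, adjusted 0.0411) and 0.628 on deviations (p = 0.190, adjusted 0.621). Without the 2 farthest arrays the latter was 0.174, so it rests on CS 3 and IQOS 2. Both values of r for Hcar1 include its CS signals, which were all below background. Lep, Lipe and Pnpla2 had r with Adipoq of 0.298, 0.159 and -0.09 on deviations. Without the same 2 arrays these were 0.503, 0.579 and 0.0085, so the low values for Lep and Lipe also rest on CS 3 and IQOS 2.

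**Figure D4:**
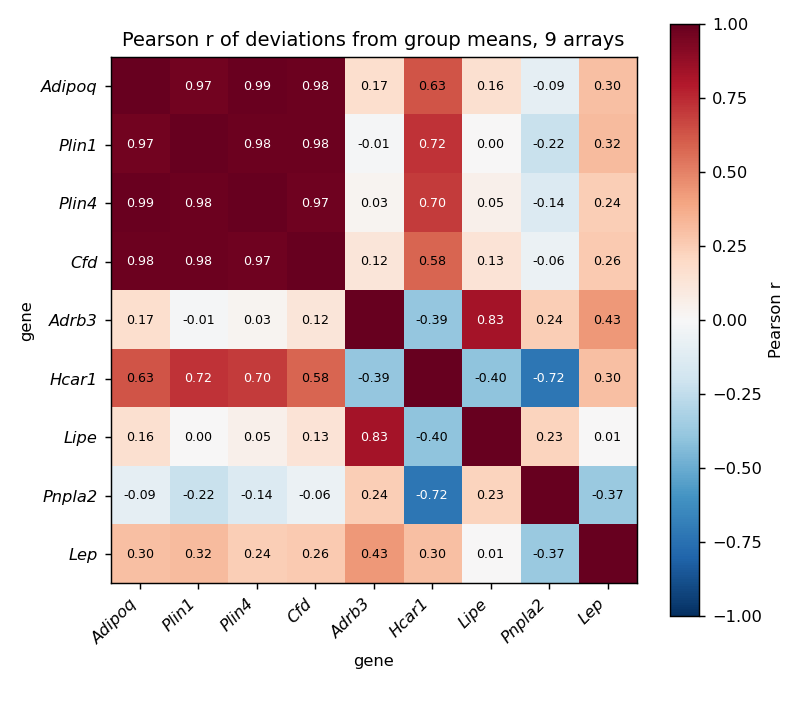
Pearson r of deviations from the group means for each pair of the 9 tested genes over the 9 arrays, with the colour from -1 to 1. The block of Adipoq, Plin1, Plin4 and Cfd holds r of 0.97 to 0.99, and most other cells lie nearer to 0, apart from Adrb3 with Lipe (0.83) and several cells of Hcar1.

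The genes most like Adipoq were ranked by r of deviations from group means over the 9 arrays among 16501 genes with a value on every array, whose median r was 0.000417. Plin4 ranked 1, Cfd 2 and Plin1 5. Hcar1 ranked 607, Lep 3399, Adrb3 5337, Lipe 5440 and Pnpla2 9866. The 10 highest other genes were Car3 (r = 0.983), Pimreg (0.973), Asrgl1 (0.947), Pcdhb14 (0.946), Prkag3 (0.944), Tmem143 (0.933), Plxna4os1 (0.925), Fabp4 (0.922), Atp6v0e2 (0.919) and Fap (0.914). The order is a description and carries no p.

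The genes at the top differed in the size of their swing. Car3, a carbonic anhydrase abundant in fat and muscle, moved 1.0 log2 unit per unit of Adipoq, Plin1 1.07, Cfd 0.76, Fabp4, the fatty acid carrier of fat cells, 0.68 and Plin4 0.32. The other 8 of the 10 moved between 0.11 (Atp6v0e2) and 0.32 (Prkag3), which is as far as Plin4. Car3 read 2.80, 2.99 and 1.94 in air, 1.72, 1.80 and 0.31 in CS, and 1.82, 1.42 and 2.70 in IQOS. Fabp4 read 3.30, 3.21 and 2.81 in air, 2.43, 2.39 and 1.73 in CS, and 2.51, 1.80 and 3.27 in IQOS. Both dipped on CS 3 and IQOS 2 and neither passed for CS against air (-1.30 ± 0.49, adjusted p = 0.129, and -0.92 ± 0.36, adjusted p = 0.137, in limma).

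Over all ranked genes, 13 had both r above 0.8 and a slope above 0.5, limits set after the values were seen. These were Cfd, Car3, Plin1, Fabp4, Acvr1c, Retn, Pck1, Ubash3a, Plppr4, Nppb, Tcstv3, Tmem45b and Thrsp. Acvr1c encodes a receptor of fat cells, Retn the hormone resistin, Pck1 the enzyme that supplies glycerol for triglyceride, and Thrsp a lipogenic protein. Nppb is a heart gene, and Ubash3a, Plppr4, Tcstv3 and Tmem45b were in none of the gene lists read below. Over all 16501 ranked genes, 104 had r above 0.8. Among those lists, fat cell identity had 3 of 21 genes with r above 0.8 (median r 0.213). Fat synthesis and storage had 3 of 25 (0.152), lipolysis regulation 1 of 23 (0.0508) and brown fat 0 of 19 (0.291).

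**Figure D5:**
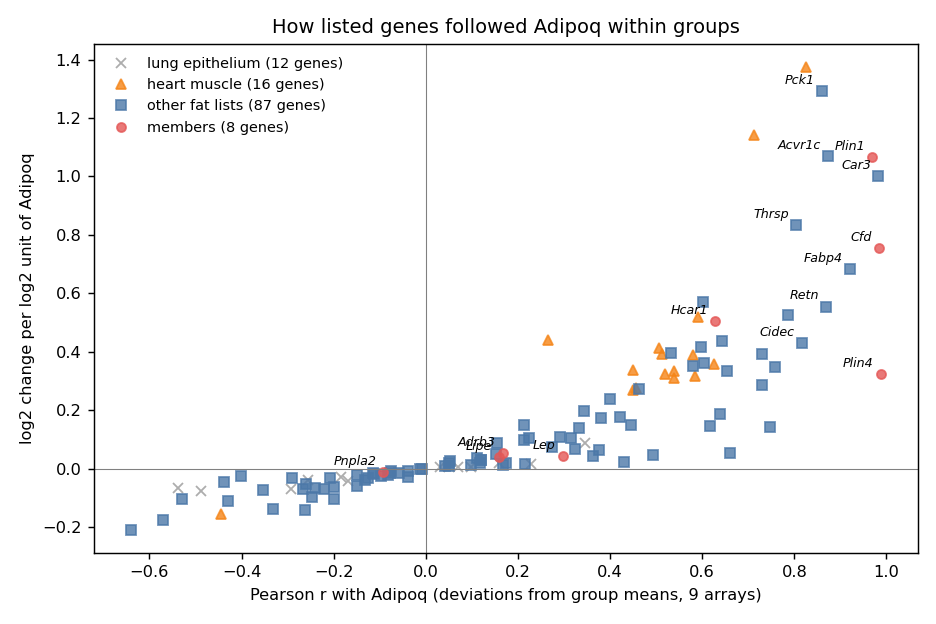
Pearson r with Adipoq on deviations from group means over the 9 arrays (horizontal) against log2 change per log2 unit of Adipoq (vertical) for the other tested genes studied, the other fat lists, heart muscle genes and lung epithelium genes, 1 point per gene. Car3, Plin1, Cfd, Fabp4, Acvr1c, Retn, Pck1 and Thrsp lie at upper right with the heart gene Nppb nearby. Other genes of the fat lists lie on both sides of r = 0, down to Hilpda (-0.64), and the median r of these lists was 0.0508 to 0.291. The lung epithelium genes lie near a slope of 0, and the heart genes lie mostly in between.

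Other genes of the pathway moved in both directions. Among 23 tested genes of lipolysis regulation, 5 rose in CS against air and 1 fell, against 11.7% of all genes called, with a median change of 0.11. G0s2, an inhibitor of Pnpla2, fell by 0.53 ± 0.10 (SE; adjusted p = 0.0231 in limma). Hcar2, the receptor of niacin and ketone bodies, rose by 1.06 ± 0.25 (adjusted p = 0.0401) and the droplet coat gene Plin5 by 0.64 ± 0.16 (adjusted p = 0.0456). Prkar2b, a regulatory subunit of protein kinase A, rose by 0.29 and the carboxylesterase gene Ces1d by 0.25. In this list G0s2 was also lower in IQOS than in air (-0.49, adjusted p = 0.0478 in limma). It was the only 1 of 23 called there, against 2.87% of all genes called. Between IQOS and CS 1 of the 23 was higher in IQOS and 1 lower, against 10.1% of all genes called. Hilpda, a droplet-bound inhibitor of Pnpla2, was higher in IQOS (0.66, adjusted p = 0.0445).

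Of 25 tested genes of fat synthesis and storage, 1 rose and 0 fell in CS (4%, against 11.7% of all genes called), with a median change of -0.03. Dgat1, which makes the last bond of triglyceride, rose by 0.81 ± 0.14 (SE; adjusted p = 0.0158 in limma). It read 0.04, 0.04 and -0.02 in air, 0.58, 0.82 and 1.08 in CS, and 0.46, 0.11 and 0.46 in IQOS. Cidec, which fuses droplets in fat cells, read 3.04, 2.83 and 2.77 in air and 2.15, 2.59 and 1.57 in CS (adjusted p = 0.0930). The fatty acid transporter gene Cd36 differed by -0.24 (adjusted p = 0.0721) and Cidea by 0.58 (adjusted p = 0.0865). None of the 25 was called between IQOS and air, against 2.87% of all genes. Cd36 (0.36) and Mlxipl (0.29) were higher in IQOS than in CS (8% called, against 10.1% of all genes).

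Of 21 tested genes of fat cell identity, 4 rose and 1 fell in CS (23.8%, against 11.7% of all genes called), with a median change of -0.14. Pparg, the master factor of fat cells that alveolar macrophages also use, read 1.45, 1.63 and 1.55 in air, 1.86, 1.89 and 1.99 in CS, and 1.23, 1.32 and 1.43 in IQOS. It rose in CS against air by 0.37 ± 0.08 (SE; adjusted p = 0.0260 in limma), while Adipoq was lower on every CS array than on every air array. Aspg (2.40), the acute-phase gene Orm1 (1.88) and Sncg (0.90) also rose, and the imprinted gene Nnat fell by 1.28. Nnat was also lower in IQOS than in air (-1.04, adjusted p = 0.0220 in limma), the only 1 of 21 called there, against 2.87% of all genes. Pparg, Aspg, Orm1, Sncg and Rbp4 were lower in IQOS than in CS (23.8% of the list, against 10.1% of all genes called). Of 19 tested brown fat genes, 1 rose in CS (Lhx8, 0.52) and 2 fell (Prdm16, -0.70, and the potassium channel gene Kcnk3, -0.40). This was 15.8%, against 11.7% of all genes called. In the limma comparisons of IQOS with air (3 at an unadjusted p under 0.05) and with CS (6), 0 were called. Over all genes 2.87% and 10.1% were called there, and 20.3% and 29.3% had an unadjusted p under 0.05. These lists were chosen with earlier results of these data known.

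Markers of tissues that can lie beside a lung were read on the same arrays. For 16 heart muscle genes the mean level was 1.30, 2.11 and 1.79 on air 1, 2 and 3, then 1.83, 1.54 and 0.69 on CS 1, 2 and 3, and 1.5, 1.52 and 2.15 on IQOS 1, 2 and 3. The heart list was lowest on CS 3, like the 4 fat genes, and within air it was lowest on air 1, where the 4 genes were not low. Nppa, an atrial hormone, read 0.16 on CS 3 and 2.20 to 4.31 on the other 8 arrays. The median r of the 16 genes with Adipoq was 0.529, against 0.463 for the other 8 tested genes studied, 0.506 for 9 skeletal muscle genes, 0.213 for fat cell identity and -0.07 for lung epithelium. It was -0.222 for 4 thymus, -0.463 for 8 mesothelium, -0.14 for 6 oesophagus and squamous and -0.288 for 5 red cell genes. No heart gene was called by limma between CS and air, against 11.7% of all genes tested. At an unadjusted p under 0.05 there were 4 of 16, against 31.2% of all genes tested. The part of heart, skeletal muscle or other neighbouring tissue in the levels of the fat genes was not tested.

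Of 10 tested skeletal muscle genes, Acta1 alone was called, lower in CS by 0.83 with 1 CS spot left out as an outlier. Of 4 thymus genes Dntt alone was called, lower by 1.25. Over all genes tested, 11.7% were called between CS and air. None of 8 mesothelium, 6 oesophagus and squamous and 5 red cell genes was called by limma between CS and air. At an unadjusted p under 0.05 there were 1, 1 and 0, against 31.2% of all genes tested. Of 12 lung epithelium genes 1 rose (Sftpd, 0.39), and the list's mean level stayed between 6.13 and 6.31 on all arrays. Within that range it was higher on every CS array (6.31, 6.30 and 6.22) than on every air array (6.13, 6.15 and 6.14). In 6 of the 12 genes every CS array lay above every air array, which held for 2855 of all 16593 genes tested. On air 3, CS 3 and IQOS 2, where the 4 fat genes dipped, the list's mean read 6.14, 6.22 and 6.31.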

How the data were processed

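Whole-lung RNA of 3 groups was measured on 9 one-colour arrays. Per the file headers, the deposited spot intensity values came from Agilent Feature Extraction (version 10.7.1.1), background-subtracted and not scaled between arrays. The authors' deposited matrix gives each probe as a linear ratio to the array's 75th percentile, which its values show. Outlier spots were left out, spots of a probe averaged on the log2 scale, and each array scaled to its 75th percentile. The 37258 probes with a value on at least 2 arrays in each group and above background throughout 1 group entered limma 3.58.1 (lmFit, then eBayes) under R 4.3.3, with files read by data.table (version 1.17.8). Adjustment was Benjamini-Hochberg over these probes, with a threshold of 0.05. Probes were named through accessions in a table of RefSeq genes. The fit was tested on simulated data. The standard errors rest on the spread between arrays and on the number of arrays.

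The genes studied, the lists and the rule were chosen with earlier results of these data known. The rule named the 10 genes, the 10 others most correlated with Adipoq, and in each list up to 4 genes with the smallest p for CS against air or, where 5 or fewer were called, those called; a few of these are given only by count, and 1 is not reported here. Alternatives were other background correction, scaling, filters, source, variance model, threshold, probe choice, array row, replicate block, and each array left out.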

Additional observations from a re-analysis of the deposited data

Results flagged for a closer look

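For Hcar1 the effects of the exposures against the same air arrays differed. The measured effect of IQOS minus that of CS was 1.75 on the log2 scale (adjusted p = 0.0325 in limma, and 0.0672 with no filter on dim probes). Since both effects share the air arrays, this is the same value as IQOS against CS. The probe was below background on all CS arrays, so the size is at least 1.15-fold and otherwise unknown. It entered the test only because all IQOS arrays were above background, so the call is not independent of the filter.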

How the results depend on the processing

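For CS against air, 3 genes were called. The count was 0 with no filter on dim probes and 0 with array row as a covariate (1541 and 353 calls over all probes, from 3840). It was 1 with only the arrays compared (2966 calls over all probes, with Hcar1 not tested), and 0 to 3 when each array was left out. For IQOS against air the count of 0 became 1 (Pnpla2) after normexp, with trend and robust eBayes, and at an adjusted p under 0.1, where calls over all probes went from 1387 to 2621, 1744 and 3281, and was 0 to 0 when each array was left out. For IQOS against CS the count of 1 became 2 after quantile normalization, with trend and robust eBayes, and at an adjusted p under 0.1. Calls over all probes went from 3590 to 3474, 4091 and 6523 there. The count became 0 with no filter, with a filter on all 9 arrays, with array row and with only the arrays compared (1658, 3614, 95 and 1769 calls over all probes). It was 0 to 1 when each array was left out. The median r of pairs within groups, 0.235, was 0.472 without removing group means, and 0.0266 (without air 3) to 0.399 (without CS 3) when each array was left out. Some settings held fewer arrays or tested more or fewer probes, and the cause of these changes was not tested.

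With the replicate number as a block the counts were 1 for CS against air (Adrb3), 0 for IQOS against air and 0 for IQOS against CS. Calls over all probes were then 3249, 540 and 2722. Arrays with the same number share only a number, with correlations of their deviations of -0.08 to 0.201.

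Some uncalled differences changed sign. Hcar1, IQOS minus air, was -0.0104 after normexp and -0.0628 to 0.30 when each array was left out. Pnpla2, CS minus air, was -0.0218 after quantile normalization and -0.0170 to 0.0988 when each array was left out. With array row, Plin1 and Lep, IQOS minus CS, were -0.19 and -0.13. Lep was -0.0214 to 0.0920 and Cfd, IQOS minus air, -0.42 to 0.0253 when each array was left out. Slide as a covariate was not run, being the same split as IQOS. The median change of all probes lay within 0.0406 (log2) of 0 in every comparison and setting run, and moved by at most 0.0582 from the reported setting.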
